A study of Arabidopsis thaliana with 9 samples.

Results

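The small heat shock proteins are small chaperones that hold unfolding proteins in solution until the larger chaperone machines can refold them. Plants make many of them, in the cytosol and in the organelles, and their transcripts are nearly absent in unstressed leaves and among the most strongly induced by heat. Heat shock factors bind repeated heat shock elements upstream of these genes, and the mRNAs are lost again when the plants are returned to a mild temperature.

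The 5 small heat shock protein genes described here are HSP17.8 (AT1G07400), HSP17.6A-CI (AT1G59860), HSP17.6B (AT2G29500) and HSP17.4 (AT3G46230), 4 cytosolic class I proteins, and HSP23.6-MITO (AT4G25200), a mitochondrial one. They were taken as all listed lines whose target transcript belongs to one of these loci, and the loci themselves had been selected on their measured slice-site signal in these libraries. The lists held 34 such lines of 3041, at 6 transcript positions of 1662, for 5 genes of 1508.

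The libraries were nanoPARE libraries, made by a method that reads where the 5′ ends of RNA molecules lie, from seedlings of Arabidopsis thaliana Col 0, 7 days old. HS libraries came from seedlings kept for 1 h at 37°C, Recovery libraries from seedlings given the same heat and then 2 h at 22°C, and Control libraries from seedlings without the heat treatment. Each group had 3 libraries. Each deposited list gives candidate slice sites, positions where a miRNA could direct AGO1, the Argonaute that carries plant miRNAs, to cut a transcript, with the signal at the site in RPM, which is its reads scaled by library size. Each line also carries an Allen score, the mismatch penalty of the miRNA-target duplex (0 is a perfect match), and the authors' fold of the site over its local background.

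The libraries differed in depth, and every Recovery library was deeper than every Control library. The step between low RPM values implied 2938238 to 3985906 reads in HS libraries, 3236099 to 4609739 in Recovery libraries and 2331769 to 3167323 in Control libraries, and 1 read was worth 0.217 to 0.429 RPM. Among marker genes, 5 of 8 shoot photosynthesis genes were listed and 0 of 7 root genes were, which covers only genes with a candidate miRNA site. A position absent from a library's list is given here as listed at 0. Transcript amounts are not part of these lists, so more 5′ ends at a site and more of its transcript cannot be told apart, nor can fewer cells holding the transcript and less of it per cell.

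The miRNAs paired with these genes are shown first, since the pairing defines each position. The 6 positions were each listed with a different miRNA, and the 6 miRNAs had 6 different seeds. In the mature sequences below, written as DNA from the RefSeq TAIR10.1 genome, the capitals mark the seed, bases 2 to 8.

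miR3440b-5p: tTTTCTTGgcccatccacttc
miR829-5p: aCTTTGAAgctttgatttgaa
miR390a-3p: cGCTATCCatcctgagtttca
miR173-3p: tGATTCTCtgtgtaagcgaaa
miR5015: tTGGTGTTatgtgtagtcttc
miR159b-5p: gAGCTCCTtgaagttcaatgg

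miR3440b-5p is encoded on chromosome 3 (TAIR10.1, 6217499 to 6217519, plus strand), miR829-5p on chromosome 1 (11834153 to 11834173, minus strand) and miR390a-3p on chromosome 2 (16062023 to 16062043, plus strand). miR173-3p lies on chromosome 3 (8236227 to 8236247, plus strand), miR5015 on chromosome 5 (20554975 to 20554995, minus strand) and miR159b-5p on chromosome 1 (6220650 to 6220670, plus strand). miR390a-3p, miR173-3p and miR159b-5p come from the hairpins of 3 well known miRNAs, miR390, miR173 and miR159, but from the arm opposite to the one those miRNAs are known for. Each of the 6 miRNAs was also listed at other loci, between 4 loci in all for miR5015 and 19 for miR829-5p.

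The matching sites of 5 of the positions are given next, so that the poor pairing can be seen. Each site is the best gapped match of the miRNA in the annotated TAIR10.1 transcript, on the transcript's strand, and the capitals mark the bases on either side of the cut, which falls before the base opposite miRNA base 10.

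HSP17.8 with miR3440b-5p: aaagtggaagaGGctaagaaga
HSP17.6A-CI with miR829-5p: atcaagttaaAGcttcaatgg
HSP17.4 with miR173-3p: tttcggttgCCagagaatgca
HSP17.4 with miR5015: gaagagtgacaCAtggcaccgt
HSP23.6-MITO with miR159b-5p: gcatgggagctTCaggagctc

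All 6 positions had deposited Allen scores between 5 and 6, and 6 is the highest score listed. Of the lines at all other loci, 68.9% scored 5 or more. The score was 6 for miR3440b-5p at HSP17.8 and for miR5015 at HSP17.4, 5.5 for miR173-3p at HSP17.4 and for miR159b-5p at HSP23.6-MITO, and 5 for miR829-5p at HSP17.6A-CI and for miR390a-3p at HSP17.6B. The gapped search gave the deposited score at 3 of these 5 sites, and 7 at HSP17.8 and 6 at the miR173-3p site of HSP17.4. At each of the 5, one position in the transcript had the best score.

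All 5 sites, as found by the search, lay in coding sequence. The HSP17.8 site was on chromosome 1 (TAIR10.1, 2275565 to 2275586, plus strand), in the only exon, at base 430 of 474 coding bases. The HSP17.6A-CI site was on chromosome 1 (22031835 to 22031855, plus strand), in the only exon, at coding base 373 of 468.

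The HSP17.4 sites were on chromosome 3, on the minus strand, in the only exon. The miR173-3p site (16984371 to 16984391) was at coding base 353 of 471, and the miR5015 site (16984425 to 16984446) at coding base 300, upstream of it. The HSP23.6-MITO site was on chromosome 4 (12917521 to 12917541, plus strand), in exon 2 of 2, at coding base 308 of 633.

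**Figure D1:**
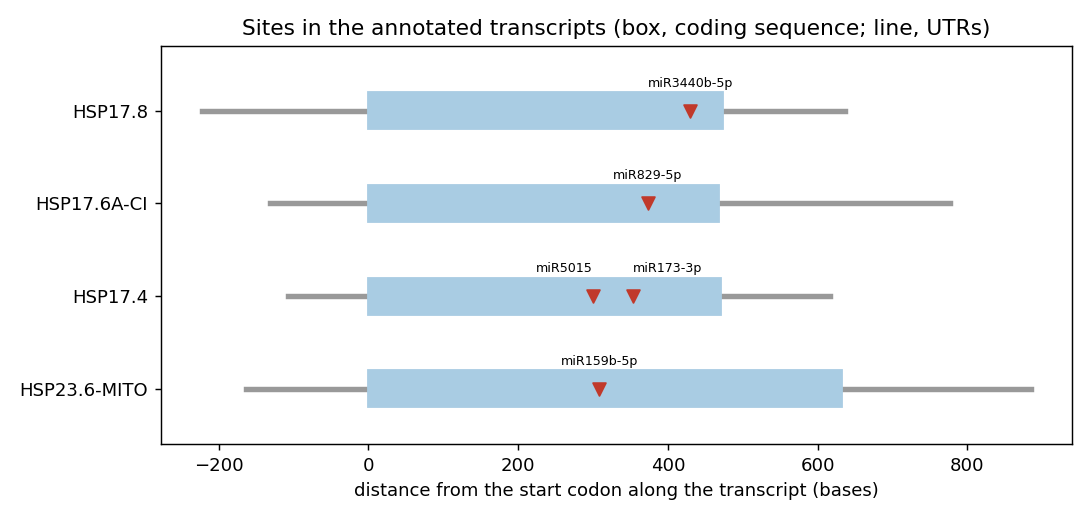
Annotated transcripts of 4 of the genes, with distance from the start codon in bases on the x axis, coding sequence as boxes and UTRs as lines; triangles mark the 5 sites with their miRNAs. All 5 sites fall inside the coding boxes, from coding base 300 in HSP17.4 to coding base 430 in HSP17.8.

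Deposited positions count along the TAIR10 transcripts and were offset from the TAIR10.1 transcripts. The offset was 1 base at both HSP17.4 positions (deposited 460 and 407), 18 bases at HSP17.8 (634), 71 at HSP17.6A-CI (433) and 92 at HSP23.6-MITO (379). The cause of the offsets was not tested, nor was whether each match found is the deposited site. The deposited positions are used as names below.

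The proteins of the 4 class I genes are of nearly equal length, 157 residues in HSP17.8, 155 in HSP17.6A-CI, 153 in HSP17.6B and 156 in HSP17.4, against 210 in HSP23.6-MITO. In global alignments HSP17.8 shared 92.4% of aligned columns with HSP17.6A-CI and 84.1% with HSP17.6B, and HSP17.6A-CI shared 82.2% with HSP17.6B. HSP17.4 was further off, at 65.2% to 66.9% with those 3, and HSP23.6-MITO shared 24.9% to 29.0% with the class I proteins.

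Such near copies can share reads, so the bases following each of these 5 cuts were looked up in the annotated transcripts of all other genes. At 4 of the 5 the first 20 bases occurred in no other gene's transcript, the other members included. At HSP17.8 the longest length tried that was shared was 15 bases, with AT4G31080. HSP23.6-MITO was the exception, since the 30 bases following its cut also occurred in AT3G05995, annotated as a long noncoding RNA, and in AT3G06005, annotated as a miscellaneous RNA. Reads at the HSP23.6-MITO position are therefore uncertain as to their gene where the alignment allowed more than one place.

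Slice-site signal at the 5 genes was high in HS, lower in Recovery and almost nil in Control. These levels helped to choose the genes, so they are a description and have no test. The 5 genes together had 56.5, 31.6 and 68.1 RPM in HS libraries, against 6.99, 10.2 and 4.99 RPM in Recovery libraries and 0, 0.349 and 0 RPM in Control libraries. Every HS library lay above every Recovery library, and every Recovery library above every Control library. In reads this was 166, 126 and 209 in HS, 24, 33 and 23 in Recovery and 0, 1 and 0 in Control. The summed signal differed by 5.52 between HS and Control, by 2.88 between Recovery and Control and by -2.64 between Recovery and HS, on the log2(RPM + 1) scale. The HS to Control and Recovery to Control values depend on the number added before the log, since Control is near 0.

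The 5 genes made up 18.4%, 18.6% and 19.7% of all listed RPM in HS libraries, against 5.57%, 5.64% and 2.90% in Recovery libraries and 0%, 0.111% and 0% in Control libraries. The HS shares lay close together although the summed RPM differed between those libraries, with replicate 2 the lowest.

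Across all 322 positions tested (listed in at least 3 of 9 libraries), 6.21% had every HS library above every Control library, 7.14% had every Recovery library above every Control library, and 7.45% had every Recovery library below every HS library. All 6 positions of the 5 genes were in the first class, 4 were in the second and 3 in the third. The same values had chosen the genes, so nothing is read from these counts. The median difference over the 6 positions was 2.49 for HS minus Control, 0.86 for Recovery minus Control and -1.23 for Recovery minus HS, against -0.13, -0.15 and -0.02 over all tested positions, on the log2(RPM + 1) scale.

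**Figure D2:**
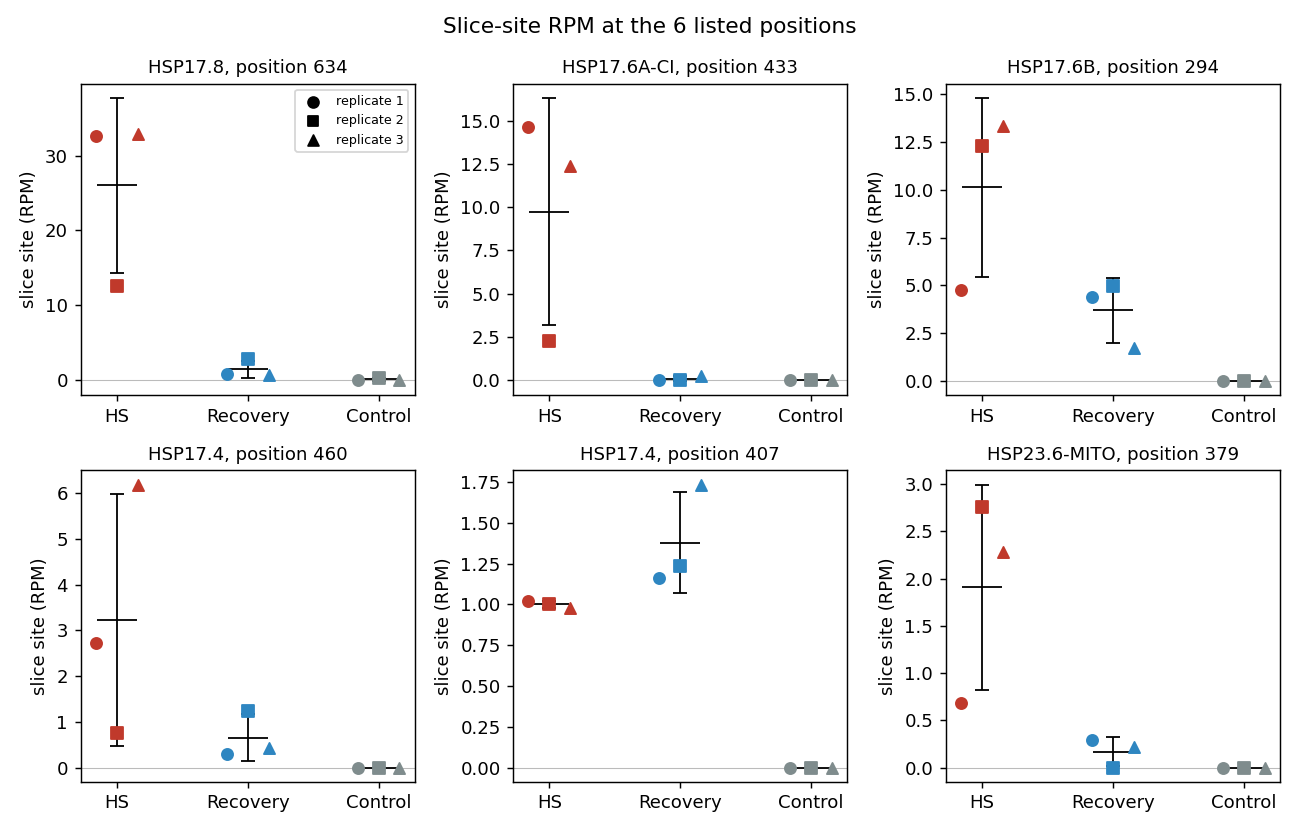
Slice-site RPM (y axis) of each library at the 6 positions, with HS, Recovery and Control along the x axis; points are libraries, marked by replicate, and the dash and bars give the mean and SD (n = 3). HS points stand above Control at every position, and at HSP17.4 position 407 the Recovery mean stands slightly above the HS mean.

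HSP17.8, a class I protein of the cytosol, had the highest mean of the 5 genes in HS. It had 32.7, 12.5 and 32.9 RPM in HS libraries, against 0.873, 2.78 and 0.651 RPM in Recovery libraries and 0, 0.349 and 0 RPM in Control libraries. The 3 groups did not overlap, and HS replicate 2 was well below the other HS libraries. The Control value was 1 read in replicate 2, the only read at any of the 5 genes in Control. The mean over 3 libraries was 1.44 ± 1.17 RPM (SD) in Recovery, against 26.0 ± 11.7 RPM (SD) in HS, a ratio of HS to Recovery of 18.1. Without Recovery replicate 2 this ratio was 34.2. On the log2(RPM + 1) scale, HS minus Control was 4.50 ± 0.54, Recovery minus Control 1.04 ± 0.54 and Recovery minus HS -3.46 ± 0.54 (SE), and Recovery minus Control was 0.67 when Recovery replicate 2 was left out.

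HSP17.6A-CI, the member closest to HSP17.8 in protein sequence, had 14.6, 2.26 and 12.4 RPM in HS libraries, against 0, 0 and 0.217 RPM in Recovery libraries, and was listed at 0 in all Control libraries. HS and Recovery did not overlap, while Recovery and Control did. The Recovery signal was 1 read, in replicate 3. The HS mean was 9.76 ± 6.59 RPM (SD, n = 3), with replicate 2 again the lowest. HS minus Control was 3.14 ± 0.48 and Recovery minus HS -3.04 ± 0.48 on the log2(RPM + 1) scale (SE).

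HSP17.6B, also class I, kept more of its signal. It had 4.76, 12.3 and 13.4 RPM in HS libraries, against 4.37, 4.94 and 1.74 RPM in Recovery libraries, and was listed at 0 in all Control libraries. HS and Recovery overlapped, since HS replicate 1 was below Recovery replicate 2, and both lay above Control. The mean over 3 libraries was 3.68 ± 1.71 RPM (SD) in Recovery, against 10.1 ± 4.69 RPM (SD) in HS, a ratio of HS to Recovery of 2.75. HS minus Control was 3.37 ± 0.51, Recovery minus Control 2.15 ± 0.51 and Recovery minus HS -1.22 ± 0.51 on the log2(RPM + 1) scale (SE). With all libraries scaled to 1 common total RPM, Recovery minus HS was -0.63. HS replicate 2 was low at HSP17.8 and HSP17.6A-CI and not at HSP17.6B.

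HSP17.4, the most distant of the class I proteins here, was the one gene with 2 positions. At position 460 it had 2.72, 0.753 and 6.19 RPM in HS libraries, against 0.291, 1.24 and 0.434 RPM in Recovery libraries, and was listed at 0 in all Control libraries. HS and Recovery overlapped, with HS replicate 2 below Recovery replicate 2. HS minus Control was 1.85 ± 0.44 and Recovery minus HS -1.17 ± 0.44 on the log2(RPM + 1) scale (SE), the second of which was -0.67 without HS replicate 3. Summed over both positions of HSP17.4, Recovery minus HS was -0.66. Leaving out HS replicate 3 made this -0.27, leaving out HS replicate 2 made it -1.05, and it was -0.11 with all libraries scaled to 1 common total RPM.

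At position 407 HSP17.4 had 1.02, 1.00 and 0.978 RPM in HS libraries, against 1.16, 1.24 and 1.74 RPM in Recovery libraries, and was listed at 0 in all Control libraries. It was the one position of the 6 at which the Recovery mean was above the HS mean. These were few reads, 4, 4 and 8 in Recovery against 3, 4 and 3 in HS, so in reads the groups met at 4. Recovery minus HS was 0.24 ± 0.34 on the log2(RPM + 1) scale (SE), less than its standard error. With all libraries scaled to 1 common total RPM it was 0.68 ± 0.35 (SE), more than its standard error. These standard errors are limma's moderated ones, which also draw on the spread at the other tested positions.

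The share of the HSP17.4 signal at position 460, the stronger of the pair, was 20%, 50% and 20% in Recovery libraries, against 72.7%, 42.9% and 86.4% in HS libraries. The groups overlapped, and the means differed by -37.3 percentage points. The Recovery shares rested on 1, 4 and 2 reads at position 460 and are given as a description.

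HSP23.6-MITO, the mitochondrial small heat shock protein, had the lowest HS mean of the 5. It had 0.681, 2.76 and 2.28 RPM in HS libraries, against 0.291, 0 and 0.217 RPM in Recovery libraries, and was listed at 0 in all Control libraries. HS and Recovery did not overlap. The Recovery values were 1 read each in replicates 1 and 3. Here HS replicate 1 was the lowest and HS replicate 2 the highest, whereas at HSP17.8 HS replicate 2 was the lowest. HS minus Control was 1.46 ± 0.35 and Recovery minus HS -1.24 ± 0.35 on the log2(RPM + 1) scale (SE).

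By mean HS signal the order was HSP17.8, HSP17.6B, HSP17.6A-CI, HSP17.4 (both positions summed, 4.22 ± 2.74 RPM) and HSP23.6-MITO (1.91 ± 1.09 RPM; SD, n = 3). Every neighbouring pair in this order overlapped between libraries. In Recovery the order changed to HSP17.6B, HSP17.4 (2.03 ± 0.522 RPM), HSP17.8, HSP23.6-MITO (0.169 ± 0.151 RPM) and HSP17.6A-CI (0.0723 ± 0.125 RPM; SD, n = 3).

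The make-up of the summed signal is a way to compare Recovery with HS that does not depend on its total, though it is made from the same RPM values by which the genes were chosen and is given as a description. With 3 libraries against 3, an exact two-sided permutation test cannot give a p below 0.1. HSP17.8 held 12.5%, 27.3% and 13.04% of the sum in Recovery libraries, against 57.8%, 39.7% and 48.3% in HS libraries. HSP17.6A-CI held 0%, 0% and 4.35% in Recovery libraries, against 25.9%, 7.14% and 18.2% in HS libraries. Both had lower shares in every Recovery library than in any HS library.

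HSP17.4 showed the opposite order, with 20.8%, 24.2% and 43.5% of the sum in Recovery libraries, against 6.63%, 5.56% and 10.5% in HS libraries. HSP17.6B held 62.5%, 48.5% and 34.8% in Recovery libraries, against 8.43%, 38.9% and 19.6% in HS libraries, and the groups overlapped. HSP23.6-MITO held 4.17%, 0% and 4.35% in Recovery libraries, against 1.20%, 8.73% and 3.35% in HS libraries, and the groups overlapped.

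The differences in mean share, Recovery minus HS, were -31.0 percentage points for HSP17.8, -15.6 for HSP17.6A-CI, 21.9 for HSP17.4, 26.3 for HSP17.6B and -1.59 for HSP23.6-MITO, which turned to 0.561 without HS replicate 2. The Recovery shares rest on 24, 33 and 23 reads.

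**Figure D3:**
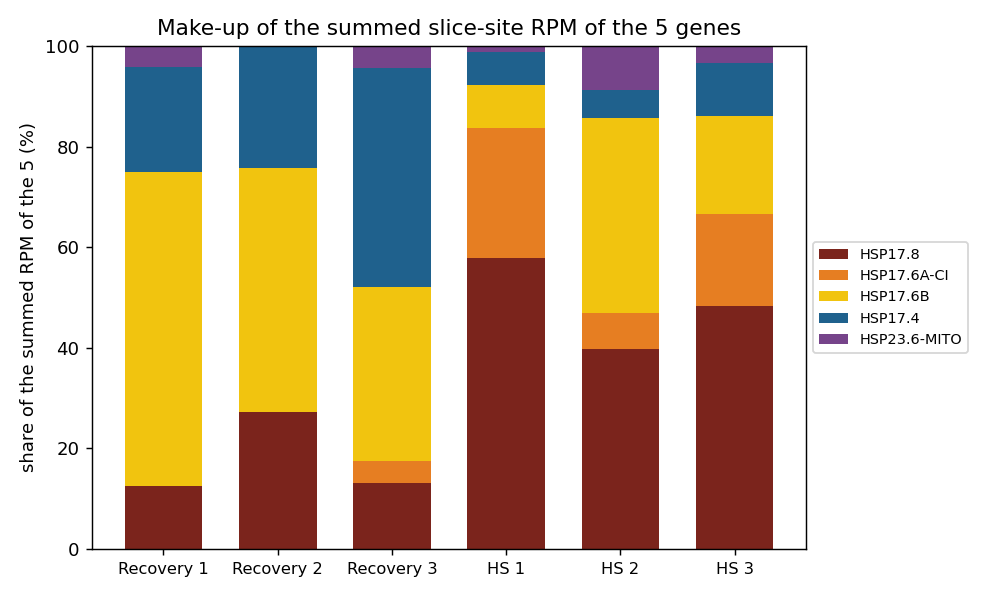
Share of each gene in the summed slice-site RPM of the 5 (y axis, percent) in each Recovery and HS library; stacked colours are genes. HSP17.8 fills 12.5% to 27.3% of the Recovery bars and 39.7% to 57.8% of the HS bars, and HSP17.4 fills 20.8% to 43.5% of the Recovery bars and 5.56% to 10.5% of the HS bars.

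The signal at every one of these positions was below its local background, the read level that the authors' pipeline assigns to the surroundings of the site. All 34 lines, which are 6 positions repeated over libraries, had a fold under 1, from 0.0339 to 0.7004 with a median of 0.209. The fold was under 1 in 60.3% of the lines at all other loci. It was under 1 in 83.6% of the 55 lines of the other heat response genes described below, with a median of 0.452. The authors' adjusted p, which tests the site over its background in 1 library, lay between 0.878 and 1.00 for the 34 lines, so 0 of 34 passed 0.05, against 4.19% of the lines at all other loci. Solved from the fold, the local background was 0.942 to 104 RPM, and it was a whole number of reads in 28 of the 34 lines.

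The local background at these genes was also high in HS. It is known only where a position was listed, which was 6 positions in each HS library and 5, 4 and 6 in Recovery libraries. Summed over those positions it was 214, 274 and 401 RPM in HS libraries, against 59.3, 48.1 and 38.5 RPM in Recovery libraries and 0.942 RPM in Control replicate 2, where 1 position was listed. At HSP17.8 it was 7.82, 8.68 and 7.01 RPM in Recovery libraries, against 69.1, 104 and 79.5 RPM in HS libraries. The ratio of the HS mean to the Recovery mean was 10.8 for this background, beside 18.1 for the slice site itself. HSP17.4 position 460 had the same order, with 2.45 for the background and 4.93 for the slice site. The order was reversed at HSP17.6B (5.81 and 2.75) and at HSP17.4 position 407 (4.62 and 0.726). HSP17.6A-CI and HSP23.6-MITO were not listed in every Recovery library.

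At HSP17.4 position 407, where the slice site was slightly higher in Recovery, the background was lower in every Recovery library. It was 8.44, 7.11 and 5.86 RPM in Recovery libraries, against 20.1, 24.1 and 54.8 RPM in HS libraries, a ratio of HS to Recovery of 4.62. At position 460 the background was 27.1, 24.1 and 18.4 RPM in Recovery libraries, against 36.1, 50.7 and 84.1 RPM in HS libraries. The part of the background in the slice-site signal was not tested.

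The median fold of the listed lines was 0.212, 0.333 and 0.359 in Recovery libraries, against 0.217, 0.0891 and 0.131 in HS libraries. The groups overlapped, and these medians are over 5, 4 and 6 lines in Recovery libraries and 6 lines in each HS library. By position, the mean fold in Recovery was lowest at HSP17.4 position 460, at 0.0696. In HS it was lowest at HSP17.4 position 407, at 0.0704, beside 0.0730 at position 460. It was highest at HSP17.6B in both, at 0.626 in Recovery and 0.408 in HS.

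**Figure D4:**
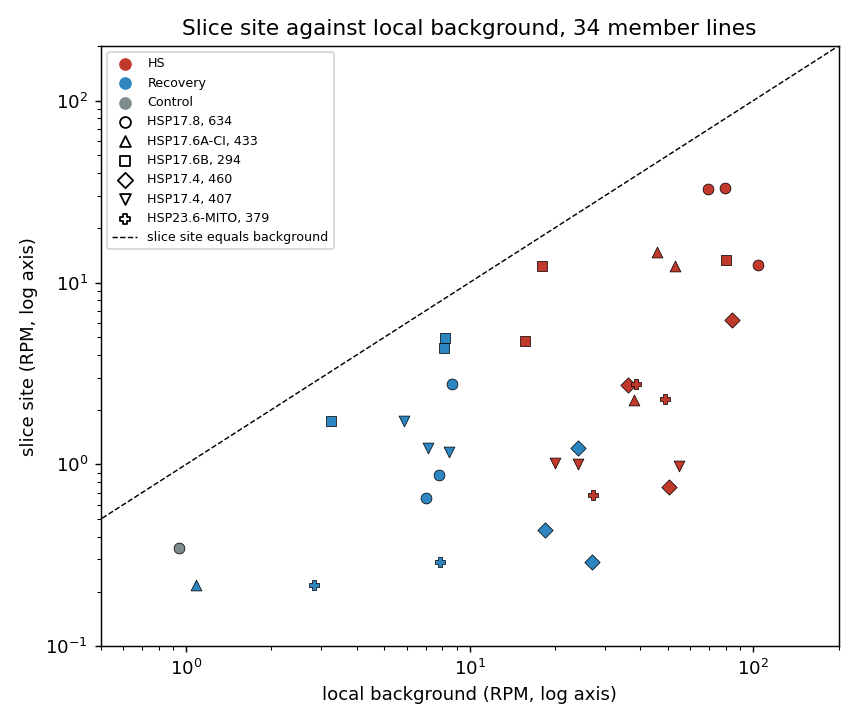
Slice-site RPM (y axis) against local background RPM (x axis), both on log axes, for the 34 lines; colour gives the group, shape the gene and position, and the dashed line marks equality. All 34 points lie below the line, with Recovery backgrounds of 1.08 to 27.1 RPM and HS backgrounds of 15.7 to 104 RPM.

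The promoters of the 5 genes were searched for the units of the heat shock element. The window was 250 bases before to 50 after each RefSeq gene start, and the motifs were GAANNTTC and TTCNNGAA, each its own reverse complement, whose matches may overlap one another. At least 1 unit was found in 3 of the 5 windows, against 19.3% of the 27568 windows of protein-coding genes. HSP17.4 held 4 units, and 3 or more were found in 0.265% of all windows. HSP17.6A-CI and HSP23.6-MITO held 1 unit each, past the annotated start, and HSP17.8 and HSP17.6B held none. These counts and places hold for the RefSeq starts alone, and windows from other starts were not searched. The deposited positions were offset by 71 and 92 bases at HSP17.6A-CI and HSP23.6-MITO, and the annotated 5′ UTR was 222 bases in HSP17.8 against 108 in HSP17.4. TATAAA, on either strand, was in 2 of the 5 windows and in 52.1% of all windows.

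The HSP17.4 units are printed because they form 2 overlapping pairs. The stretches lie on chromosome 3, minus strand, at 16984946 to 16984975 and at 16984868 to 16984897 (TAIR10.1), and the capitals mark the units.

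HSP17.4, units from -99 to -87: atcaacataGAAGCTTCTTGAAgccacctg
HSP17.4, units from -18 to -6: aagaagaaacctGAAATTTCAAGAAacttg

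Positions count back from the annotated gene start. A match describes the letters only.

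Other genes of the heat response were taken from a list of 73 genes of the chaperone families, their co-chaperones and the heat shock factors. Of these, 14 were listed in some library at 18 positions, and 10 positions of 9 genes could be tested. In HS against Control, 5 of the 10 positions passed limma's moderated test at an adjusted p of 0.05, all higher in HS, against 4.97% of all 322 positions. One of the 5, HSP70T-2 position 1614, was listed in HS libraries alone, so that it entered the tested set only through the group where it was high and had to differ. Among the other 9 positions 4 passed, against 4.85% of the 309 positions listed in libraries of 2 or 3 groups. Of these 4, only Fes1A was listed in 3 Recovery libraries. Hsp70b, HSP90.1 and HSP70T-2 position 1301 were listed in 3 HS libraries and in 2, 2 and 1 Recovery libraries. They too reached the 3 libraries needed only with HS, so nothing is read from this count. The adjusted p of Hsp70b, HSP90.1 and both HSP70T-2 positions are given below as descriptions. In Recovery against Control and in Recovery against HS, 0 of the 10 passed, although 2 and 6 had an unadjusted p under 0.05, and 2.80% and 0.932% of all positions passed. The median difference over the 10 positions was 1.24 for HS minus Control, 0.23 for Recovery minus Control and -1.04 for Recovery minus HS, on the log2(RPM + 1) scale. Only Fes1A and J3 were listed in at least 3 libraries outside HS. The filter thus favours positions high in HS, and nothing is read from these medians.

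Fes1A, a co-chaperone of cytosolic Hsp70, rose most of the 10. It had 3.06, 9.28 and 9.45 RPM in HS libraries, against 0.291, 2.78 and 1.30 RPM in Recovery libraries, and was listed at 0 in Control libraries. HS minus Control was 2.92 ± 0.49 on the log2(RPM + 1) scale (SE; limma, adjusted p = 0.00033). It passed without any 1 of the 9 libraries.

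Hsp70b, a cytosolic Hsp70 induced by heat, had 1.36, 1.00 and 10.4 RPM in HS libraries at position 590, against 0, 0.309 and 0.434 RPM in Recovery libraries, and was listed at 0 in Control libraries. HS minus Control was 1.92 ± 0.48 (limma, adjusted p = 0.0202). It passed in 6 of the 9 fits that left out a library. It did not pass without HS replicate 3, the highest library, where the difference was 1.12 (limma, adjusted p = 0.0808), without Control replicate 2 (limma, adjusted p = 0.0873) or without Recovery replicate 3 (limma, adjusted p = 0.0574). HSP90.1, the heat-induced cytosolic Hsp90, had 1.70, 1.00 and 2.28 RPM in HS libraries, against 0, 0.618 and 0.217 RPM in Recovery libraries, and was listed at 0 in Control libraries. Its HS minus Control difference was 1.38 ± 0.34 (limma, adjusted p = 0.0168). Without HS replicate 3 its adjusted p was 0.0727 and without Control replicate 2 it was 0.0565 (limma).

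HSP70T-2, a truncated Hsp70, had 1.70, 0.502 and 2.28 RPM at position 1301 and 1.02, 0.502 and 3.59 RPM at position 1614 in HS libraries, and was listed at 0 in Control libraries. In Recovery its one value above 0 was 0.618 RPM, in replicate 2 at position 1301. It passed at both of its positions, 1301 and 1614, with differences of 1.25 ± 0.36 and 1.27 ± 0.37 (limma, adjusted p = 0.0467 for each). Both positions entered the tested set only through HS, so these passes are not read as support. Position 1301 passed in 2 of the 9 fits that left out a library and position 1614 in 1 of the 6 in which it could be tested. With the replicate block position 1301 had an adjusted p of 0.0511 (limma). When unlisted positions were given the value of 1 read, 0 of the 10 positions passed.

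The positions that did not pass were those of MTHSC70-2, a mitochondrial Hsp70 (1.24 ± 0.40, adjusted p = 0.0914), J3, a J-domain co-chaperone (1.10 ± 0.37, adjusted p = 0.11), Hop3, which links Hsp70 and Hsp90 (0.38 ± 0.18, adjusted p = 0.305), CR88, the plastid Hsp90 (0.30 ± 0.26, adjusted p = 0.591), and HSP18.2 (0.25 ± 0.18, adjusted p = 0.549), with HS minus Control on the log2(RPM + 1) scale and limma's adjusted p. MTHSC70-2 passed among positions listed in at least 5 libraries (limma, adjusted p = 0.0354), where HSP70T-2 could not be tested, and without HS replicate 1 (limma, adjusted p = 0.0422), and J3 passed with a pseudocount of 0.1 (limma, adjusted p = 0.0497). HSP18.2 (AT5G59720), a class I protein like 4 of the 5 genes, was the only one of 13 other small heat shock proteins in the lists. It had 0.340, 0.251 and 0 RPM in HS libraries, against 0.582, 0 and 0 RPM in Recovery libraries, and was listed at 0 in Control libraries. All of its values were 1 or 2 reads.

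**Figure D5:**
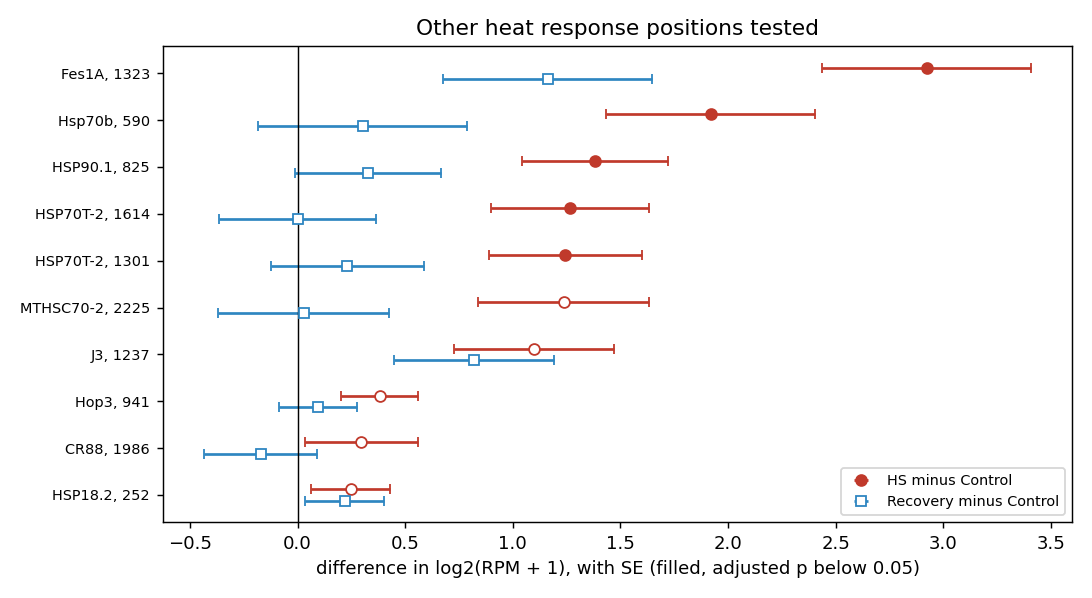
Difference in log2(RPM + 1) with its SE (x axis) for the 10 tested positions of other heat response genes (y axis); circles, HS minus Control; squares, Recovery minus Control; filled where limma's adjusted p was below 0.05. The 5 filled circles run from 1.25 at HSP70T-2 to 2.92 at Fes1A, and no square is filled. Of the filled positions, only Fes1A would have been tested without the HS libraries.

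The loci whose summed signal was most like that of the 5 genes over the 9 libraries were mostly from this list. By Pearson's r of log2(RPM + 1), among 328 loci, these were HSP90.1 (0.916), Fes1A (0.902), HSP70T-2 (0.851), VMA10 (0.829) and J3 (0.820). The points share their libraries and the 3 groups, so r describes the pattern of group levels as much as any finer likeness. The sum of the 5 genes is also made of the values that chose them. A locus high in HS and near 0 in Control therefore ranks high in any case. VMA10, a subunit of the vacuolar proton pump, was the one locus of the 5 outside the list, with 1.02, 0.502 and 0.652 RPM in HS libraries, and it was listed at 0 in Recovery and Control libraries.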

How the data were processed

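TAIR10 was the genome build per the labels. The authors ran the public nanoPARE pipeline on each library separately. Its version, aligner setting or miRNA set is not given in the sources used here. RPM values deposited by the authors are slice-site reads scaled to library size. The ratio deposited beside them (fold) divides the slice-site RPM, after adding 1, by a background of the surroundings, also after adding 1; this was worked out from the numbers. The authors' p-value is adjusted and belongs to 1 site in 1 library, and the Allen score deposited is a mismatch score. Positions were deposited by the authors along the transcript.

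RPM values were whole reads (within 0.01) in 89.2% to 94.4% of lines per library, and in 34 of 34 lines of the 5 genes, so no count model was fitted. Positions listed in at least 3 of 9 libraries (322) were tested as log2(RPM + 1) with limma 3.58.1 in R 4.3.3 (all groups in 1 fit, Benjamini-Hochberg adjustment); unlisted positions were 0. Shares and folds of the 5 genes come from the values that chose them and are given as descriptions. The SE are limma's moderated ones, in which the spread between libraries at a position is drawn toward a trend over all tested positions. They cover no other source of error. Sequences came from RefSeq TAIR10.1; motifs and sites were searched in Python 3.11.15, and proteins aligned with Biopython 1.88 (BLOSUM62, global). 1 target site is not reported here. The fits and searches were tested on simulated data.

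Groups came from sample titles. The series describes the 3 libraries of each group as biological replicates. The genes, lists and tests were chosen with earlier results of these data known. Named were all positions of the 5 genes, every listed heat response gene with a tested position, and the 5 loci most correlated with their sum. Alternatives were other pseudocounts, rescaling, each library left out, a replicate block, other filters, and other values for unlisted positions.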

Additional observations from a re-analysis of the deposited data

How the results depend on the processing

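The summed signal of the 5 genes kept its directions under every alternative tried. HS minus Control (5.52) was 8.23 and 6.39 with pseudocounts of 0.1 and 0.5, and 4.17 with unlisted positions at the value of 1 read. Recovery minus Control (2.88) was 5.45, 3.67 and 1.57 under these 3 settings, and 3.50 when all libraries were scaled to 1 common total RPM, where Recovery minus HS (-2.64) was -1.97. Leaving out 1 library gave 5.29 to 5.83, 2.65 to 3.10 and -2.96 to -2.41 for these 3 differences. With unlisted positions at 1 read, Recovery minus Control turned to -0.10 at HSP17.6A-CI and at HSP23.6-MITO.

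Of the other heat response positions, 5 passed in HS against Control, all but Fes1A in the tested set only through HS. This count was 6 with a pseudocount of 0.1, without a filter and with values that are not whole reads set to 0 (where MTHSC70-2 passed; limma, adjusted p = 0.0407), 4 among positions listed in at least 5 libraries, 3 with libraries rescaled, 0 with unlisted positions at 1 read, and 1 to 5 with 1 library left out: 3 without Control replicate 1 or 3 or Recovery replicate 1, 2 without Recovery replicate 3, and 1 without Control replicate 2 or HS replicate 3. In Recovery against Control it was 1 in place of 0 with a pseudocount of 0.1. In Recovery against HS it was 2 in place of 0 without a filter and with positions listed in at least 5 libraries, and 0 to 2 with 1 library left out. Differences near 0 changed sign: with rescaling, Recovery minus HS was 0.09 at J3 and 0.10 at HSP18.2; with unlisted positions at 1 read, HS minus Control was -0.06 and Recovery minus HS 0.06 at HSP18.2, and Recovery minus Control was -0.02 at Hsp70b and MTHSC70-2 and -0.10 at Hop3. With 1 library left out, Recovery minus Control at MTHSC70-2 ran from -0.14 to 0.17 (-0.04 without Control replicate 1 or 3), and Recovery minus HS at HSP18.2 from -0.15 to 0.08. The share of HSP23.6-MITO ranged from -3.20 to 0.561 percentage points. The causes were not tested.

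Replicate numbers were shared between groups in the labels. To look for pairing, the group mean of each position was first subtracted from each library's log value. These deviations from the group means had correlations of -0.0978 to 0.0991 over the 9 same-numbered pairs of libraries. By the same deviations, 2 of 9 libraries correlated best with their own number, so the numbers were not taken as pairing. How alike the libraries are in their signal itself is not shown by these correlations. With the replicate block, the summed differences were 5.52, 2.88 and -2.64, and 4 of the heat response positions passed in HS against Control.

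Single lines of the 5 genes rested on 1 to 16 reads in Recovery libraries and on 1 read in Control replicate 2.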
